A study of Mus musculus with 8 samples.

Results

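A set of 10 genes that mark intestinal stem cells or respond to Wnt signalling, *Lgr5*, *Olfm4*, *Ascl2*, *Smoc2*, *Axin2*, *Rnf43*, *Sox9*, *Cd44*, *Ephb2* and *Ephb3*, was followed through bulk RNA-seq of mouse small intestinal crypts and villi. They were taken by symbol for their known roles, with no threshold on the values measured here, and all 10 were found among the 11554 genes of the crypt table and among the 12701 genes of the villus table. In crypts, none of the 10 genes was called different between genotypes, and the 95% interval of the fold change included no change for each of them. In simulated counts most 2-fold changes were missed, so a gene that was not called may still differ. In villi, *Lgr5* was higher in both mutant libraries than in the control library, by a mean of 1.61 on the log2 scale, from few reads. In every comparison of crypts with villi the 10 genes were higher in crypts, from 87.65-fold for *Lgr5* to 4.535-fold for *Rnf43* in Ctrl mice.

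The mice were on the C57BL/6 background. In *Gli1-Ptgs* cKO mice (cKO from here on) a tamoxifen-inducible Cre driven by *Gli1* removes floxed *Ptgs1* (COX1) and *Ptgs2* (COX2), so the deletion is directed to Gli1-expressing mesenchymal cells and not to the epithelium. RNA was taken 1 month after tamoxifen from crypts and from villi, with 2 libraries for each genotype and tissue. The age of the mice and the pooling of animals are not given in the sources used here. The Ctrl mice are called WT in the sample labels and Gli1-CreERT2; Rosa26-tdTomato elsewhere in the labels, whereas the study's own description gives both floxed genes without Cre. The labels and the study's methods also name different RNA and library kits. The values of the Ctrl villus libraries were identical for all 12701 genes, so these libraries were counted as 1 sample.

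Values are normalized counts, the reads on a gene divided by the library's size factor. The crypt libraries held 16853017 to 21121714 reads on listed genes and the villus libraries 13477600 to 15751024. Of the targeted genes, *Ptgs1* was counted at 365.5 and 163.8 in Ctrl crypts and at 178.4 and 198.9 in cKO crypts, with overlap. *Ptgs2* and *Gli1* are absent from the lists. *Dcn*, a matrix proteoglycan of fibroblasts, had 3458 to 5819 normalized counts in the 4 crypt libraries, so mesenchymal RNA was present. The libraries of cKO crypts differed more from each other than the Ctrl crypts did, with a median absolute log2 difference of 0.497 against 0.194. cKO crypt replicate 1 stood apart by transcript length, with a Spearman correlation of -0.673 across 11546 genes between the longest annotated transcript and the log2 difference from the other 3 libraries. Genes are not independent replicates, and this correlation is a description of that library.

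Epithelial stem cells at the crypt base are maintained by Wnt signals from Paneth cells and from the mesenchyme beneath. A Wnt ligand binds a Frizzled receptor together with Lrp5 or Lrp6, the destruction complex built on Apc and Axin is switched off, and beta-catenin then enters the nucleus and acts with TCF/LEF factors on its target genes. R-spondins strengthen the signal by binding Lgr receptors and removing Rnf43 and Znrf3, ubiquitin ligases that clear Frizzled from the cell surface. Along the axis from crypt to villus the signal fades while cells differentiate, and the Eph receptors keep the cells sorted in position.

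The 10 genes lie on 8 chromosomes of GRCm38, and all are protein coding. *Lgr5* (ENSMUSG00000020140) spans chr10:115450311-115587780 on the minus strand, *Olfm4* (ENSMUSG00000022026) chr14:79984081-80023139 on the plus strand and *Ascl2* (ENSMUSG00000009248) chr7:142966829-142969264 on the minus strand. *Smoc2* lies at chr17:14279506-14404790, *Axin2* at chr11:108920349-108950783, *Rnf43* at chr11:87662722-87735539 and *Sox9* at chr11:112782224-112787760, all on the plus strand. *Cd44* lies at chr2:102811141-102901665 and *Ephb2* at chr4:136647539-136835988 on the minus strand, and *Ephb3* at chr16:21204755-21223305 on the plus strand. The antisense gene *Gm11670* overlaps 3 exons of *Axin2*, and the long noncoding RNA *Gm6999* overlaps 1 exon of *Olfm4* on the same strand. Neither is listed in the tables and the strand setting of the counting is not given in the sources used here, so the counts of *Axin2* and *Olfm4* may include reads of these neighbours.

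RefSeq promoters of GRCm38.p6, each from 250 bases before to 50 bases after the RefSeq start of the gene, were matched for 7 of the 10 genes, with 8 promoters because *Rnf43* has 2 starts. The RefSeq start of *Olfm4* lies inside the span given above and not at its first base. The letters CTTTG with A or T at each of the next 2 bases, the core that TCF/LEF factors bind, were searched on both strands. They were in 0 of the 8 promoters, against 16.9% of all 32851 promoters and 11.9% of the 11762 promoters of genes in the crypt table. CCAAT on either strand was in 4 of the 8 promoters and in 37.4% of all promoters, and TATAAA was in 0 of the 8 and in 13.6% of all. These matches describe the letters in short windows. The 150 bases before the start are printed for the most abundant of the genes (*Olfm4*), for the one with the most CCAAT matches (*Ascl2*) and for a direct Wnt feedback gene (*Axin2*), with CCAAT or its reverse complement in capitals. They lie at chr14:80000152-80000301 on the plus strand, chr7:142969265-142969414 on the minus strand and chr11:108920199-108920348 on the plus strand, and hold 57.3%, 68.7% and 79.3% G and C. The CCAAT matches of *Olfm4* (at -243 from the start) and *Axin2* (at 14 after it) lie outside the 150 bases printed.
Olfm4: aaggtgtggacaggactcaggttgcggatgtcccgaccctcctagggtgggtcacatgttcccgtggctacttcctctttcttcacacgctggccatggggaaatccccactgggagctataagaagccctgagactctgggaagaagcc
Ascl2: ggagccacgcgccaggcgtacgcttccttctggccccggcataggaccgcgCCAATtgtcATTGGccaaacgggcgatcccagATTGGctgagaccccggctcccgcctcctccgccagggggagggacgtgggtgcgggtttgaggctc
Axin2: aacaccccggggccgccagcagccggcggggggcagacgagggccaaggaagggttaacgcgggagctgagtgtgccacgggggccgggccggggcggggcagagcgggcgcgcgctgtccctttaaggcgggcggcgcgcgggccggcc

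The levels of the 10 genes in crypts were first compared with each other per length, as CPM (reads scaled to a common total of listed reads) per kilobase of the longest annotated transcript, averaged over the 4 crypt libraries. *Olfm4* was the most abundant, with 1307 on that scale and a range of 1172 to 1437. It ranked between 11 and 15 by normalized count among the 11554 genes. *Smoc2* followed with 52.82 and *Ascl2* with 28.28, and the ranges of these neighbours did not overlap. *Axin2* had 24.77, *Sox9* 20.11, *Cd44* 15.08, *Rnf43* 14.92, *Lgr5* 13.04, *Ephb2* 9.615 and *Ephb3* 9.572. Among these lower genes, adjacent ranges were separate only between *Sox9*, whose lowest library had 18.16, and *Cd44*, whose highest had 16.94. All other neighbours from *Ascl2* down overlapped. *Lgr5*, the gene by which these stem cells are named, was thus expressed per length at a level close to those of *Rnf43* and *Cd44*.

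**Figure D1:**
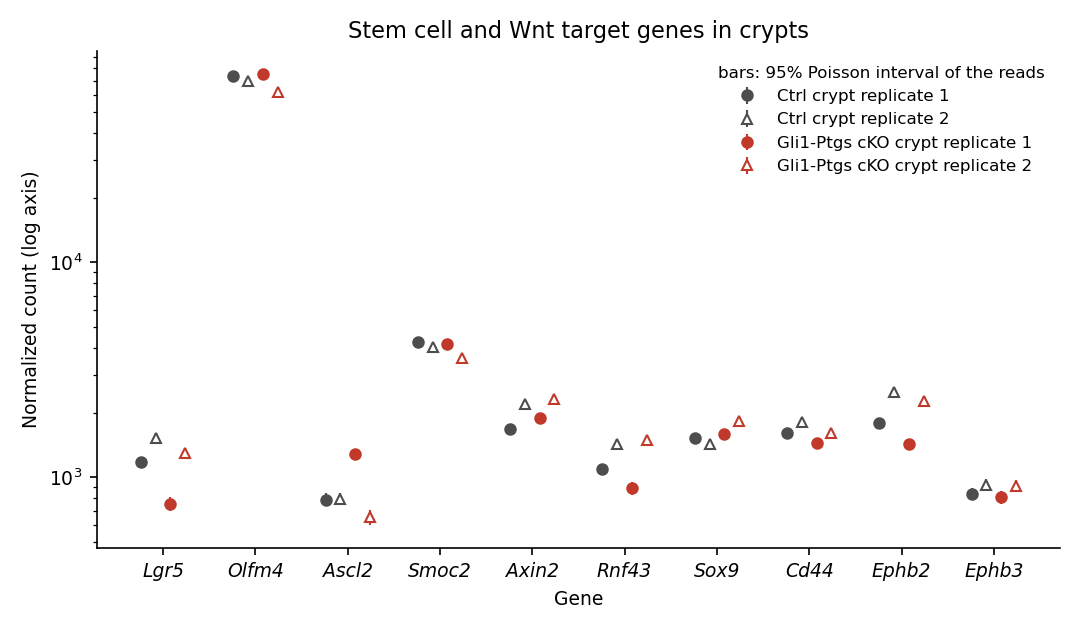
Normalized counts (log axis) of the 10 genes in the 2 Ctrl and 2 Gli1-Ptgs cKO crypt libraries, with bars for the 95% Poisson interval of the reads. Olfm4 lies between 61810 and 75260 in the 4 libraries, and for Sox9 both Gli1-Ptgs cKO libraries (1591 and 1820) lie above both Ctrl libraries (1527 and 1428).

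To ask whether loss of COX in the mesenchyme changed these genes in crypts, the 4 libraries were compared with limma on log2(normalized count + 1) over all 11554 genes. At a Benjamini-Hochberg adjusted p under 0.05, 0 of the 10 genes were called, beside 0 of all genes by limma (0%), 0 by edgeR and 11 by DESeq2. At an unadjusted p under 0.05 limma again called 0 of 10, beside 73 of all genes (0.632%), and edgeR and DESeq2 on the recovered reads called 0 of the 10 at either threshold. At an unadjusted p under 0.01 with an absolute log2 fold change over 1, the threshold of the study, 21 genes passed (0.182%) and none was among the 10. By median, the 10 genes had a log2 fold change of -0.09 and all genes one of -0.01, and 7 of the 10 were below 0, beside 51.4% of all genes. With 2 libraries per genotype, the smallest two-sided p of an exact permutation test is 0.333, so that test cannot pass for a single gene. In counts simulated with the spread of the crypt libraries, limma called 9% of the genes changed 2-fold. Most changes of that size would thus be missed, and a gene that was not called may still differ. RNA of a whole preparation was measured, so fewer stem cells and less RNA per stem cell cannot be told apart.

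The stem cell genes were taken first. *Lgr5*, the R-spondin receptor that defines the crypt base columnar cell, had normalized counts of 1176 and 1529 in Ctrl crypts against 752.2 and 1296 in cKO crypts. The lowest value was that of cKO replicate 1, while replicate 2 lay between the Ctrl libraries. The log2 fold change of -0.44 ± 0.33 (SE, n = 2 and 2, 95% interval -1.23 to 0.35) had an adjusted p of 1.00 by limma.

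*Ascl2*, a Wnt-responsive transcription factor needed for stem cell fate, had 787.1 and 793.1 normalized counts in Ctrl and 1280 and 650.4 in cKO crypts. The Ctrl libraries were nearly equal and the cKO libraries fell on either side of them, so that the log2 fold change of 0.21 ± 0.36 (SE, n = 2 and 2, adjusted p = 1.00 by limma) averages values of opposite direction. *Lgr5* and *Ascl2*, which mark the same cell, lay on opposite sides of the Ctrl libraries in cKO replicate 1. The log2 ratio of *Ascl2* to *Lgr5* normalized counts was -0.58 and -0.95 in the Ctrl crypts and 0.77 in cKO replicate 1, while cKO replicate 2 was near the lower Ctrl value. By normalized count, without regard to length, *Ascl2* was above *Lgr5* in cKO replicate 1 only among the crypts. In CPM per kilobase *Ascl2* was above *Lgr5* in each crypt library. The values were 26.71 and 25.99 against 13.36 and 16.77 in Ctrl, and 38.89 and 21.52 against 7.653 and 14.36 in cKO.

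*Olfm4*, a secreted glycoprotein and the most abundant stem cell marker, had 73910 and 69730 normalized counts in Ctrl and 75260 and 61810 in cKO crypts. The groups overlapped, with a log2 fold change of -0.07 ± 0.40 (SE, n = 2 and 2, adjusted p = 1.00 by limma) and a 95% interval that reached from 0.4916-fold to 1.836-fold. *Smoc2*, a matricellular protein of the stem cell signature, had 4254 and 4050 normalized counts in Ctrl and 4189 and 3581 in cKO crypts. It was the second most abundant of the genes, and its cKO replicate 1 lay between the Ctrl libraries (log2 fold change -0.10, 95% interval -0.67 to 0.47).

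The Wnt feedback genes followed. *Axin2*, a scaffold of the destruction complex that is itself induced by Wnt, had 1685 and 2202 normalized counts in Ctrl and 1879 and 2316 in cKO crypts. *Rnf43*, the ubiquitin ligase that clears Frizzled, had 1090 and 1429 normalized counts in Ctrl and 890.7 and 1491 in cKO crypts. In both genes replicate 2 was above replicate 1 in each genotype. The log2 fold changes were 0.12 for *Axin2* (95% interval -0.51 to 0.74) and -0.12 for *Rnf43* (95% interval -0.89 to 0.66), both with an adjusted p of 1.00 by limma.

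*Sox9*, a transcription factor of crypt progenitors and Paneth cells, had 1527 and 1428 normalized counts in Ctrl and 1591 and 1820 in cKO crypts. It was the only one of the 10 genes whose groups did not overlap with these size factors, beside 9.73% of all genes with both cKO libraries above both Ctrl libraries and 11.3% with both below. With scaling by library size alone *Sox9* overlapped, and *Smoc2* and *Cd44* had both cKO libraries below both Ctrl libraries, beside 1783 of 11554 genes. With the length correction described further on *Olfm4* had both below, beside 1676 of 11546 genes. For *Sox9* the log2 fold change of 0.20 ± 0.24 (SE, n = 2 and 2) was smaller than the standard error, with an adjusted p of 1.00 by limma.

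The genes of adhesion and cell sorting were taken last. *Cd44*, a hyaluronan receptor of the crypt base, had 1602 and 1808 normalized counts in Ctrl and 1446 and 1615 in cKO crypts. *Ephb2*, the Eph receptor that falls in a gradient from the crypt base upwards, had 1781 and 2506 normalized counts in Ctrl and 1431 and 2273 in cKO crypts. *Ephb3*, which restricts Paneth cells to the crypt base, had 835.9 and 920.0 normalized counts in Ctrl and 808.9 and 911.8 in cKO crypts. In these genes cKO replicate 1 was the lowest of the 4 libraries and the groups overlapped. The log2 fold changes were -0.16 for *Cd44* (95% interval -0.72 to 0.41), -0.23 for *Ephb2* (95% interval -0.99 to 0.54) and -0.03 for *Ephb3* (95% interval -0.62 to 0.56).

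**Figure D2:**
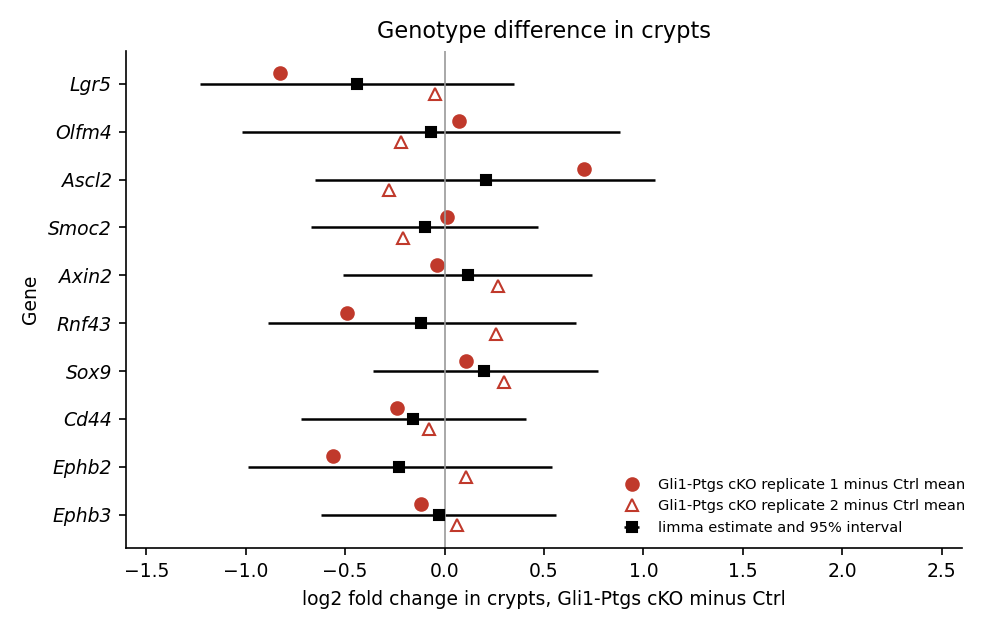
Log2 fold change of each gene in crypts, Gli1-Ptgs cKO minus Ctrl, as the limma estimate with its 95% interval (squares) and as the difference of each Gli1-Ptgs cKO library from the Ctrl mean (circles and triangles). Every interval includes 0, and the 2 libraries lie farthest apart for Ascl2 (0.70 and -0.28) and Lgr5 (-0.83 and -0.05).

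Some features of the libraries ran through the 10 genes. In 6 of them, *Lgr5*, *Axin2*, *Rnf43*, *Cd44*, *Ephb2* and *Ephb3*, replicate 2 was above replicate 1 in both genotypes, as in 31.7% of all genes. In 7 of them cKO replicate 1 lay outside the range of the other 3 crypt libraries, as in 77.8% of all genes. The intervals bound what these libraries could show. For 7 of the 10 genes the 95% interval lay within a 2-fold change in both directions, and it reached past 2-fold lower for *Lgr5* and *Olfm4* and past 2-fold higher for *Ascl2*.

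The value for *Lgr5* rested on cKO replicate 1. Against the Ctrl mean this library was -0.83 for *Lgr5* and cKO replicate 2 was -0.05, both as log2 differences. For *Ascl2* the values were 0.70 and -0.28. Without cKO replicate 2, limma called both genes, *Lgr5* with an adjusted p of 0.0328 and *Ascl2* with an adjusted p of 0.0374, together with 1987 of all 11554 genes (17.2%). That fit holds 1 cKO library, which is assumed to vary like the Ctrl libraries. Without cKO replicate 1 neither gene was called and the log2 fold changes were -0.05 and -0.28.

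Transcript length moved with these differences. Among all genes, the median log2 difference of cKO replicate 1 from the Ctrl mean was taken in 10 bins of equal size by transcript length. It went from 0.84 in the bin of the shortest transcripts (303 to 1437 bases) to -0.65 in the bin of the longest (at least 6809 bases). In cKO replicate 2 the same medians were -0.15 and 0.10. *Ascl2*, with a longest transcript of 1605 bases, is the shortest of the 10 genes. *Ephb2*, with 10902 bases, is the longest, and *Lgr5* has 4793 bases. After a lowess curve over length was subtracted from each library, *Ascl2* in replicate 1 went from 0.70 to 0.18 and *Ephb2* from -0.56 to 0.20. *Lgr5* stayed the lowest of the 10 in replicate 1, at -0.57, and was at -0.10 in replicate 2. The median of the 10 fold changes was then 0.00 and 4 of the 10 were below 0. The part of transcript length in the genotype differences was not tested beyond this correction.

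**Figure D3:**
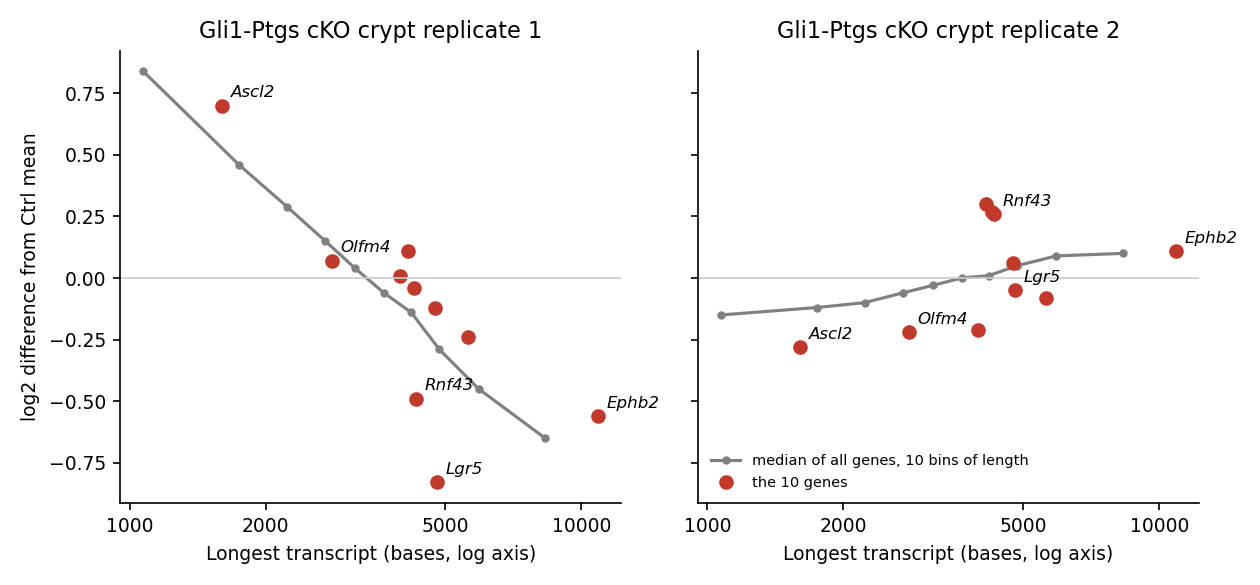
Log2 difference from the Ctrl mean against the longest annotated transcript (bases, log axis) for the 10 genes (red) in each Gli1-Ptgs cKO crypt library, with the median of all genes in each of 10 bins of length (grey line). In replicate 1 the grey line goes from 0.84 to -0.65 and Lgr5 lies below it at -0.83, while in replicate 2 the line goes from -0.15 to 0.10.

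The genes upstream of these targets were then counted, in lists of known pathway members. At an adjusted p under 0.05 or an unadjusted p under 0.05, limma, edgeR and DESeq2 each called 0 genes of these Wnt pathway lists. Of the Wnt ligands and the genes that secrete them, 4 are listed in the crypt table, and their median was -0.10 on the log2 scale. *Wnt3*, the ligand made by Paneth cells, had 346.7 and 352.0 normalized counts in Ctrl and 328.4 and 320.7 in cKO crypts. It was the only ligand whose groups did not overlap, beside 11.3% of all genes with both cKO libraries below both Ctrl libraries. Its log2 fold change was -0.11 (95% interval -0.79 to 0.57). *Wls*, the carrier that brings Wnt proteins to the cell surface, had 1522 and 1778 normalized counts in Ctrl and 1474 and 1614 in cKO crypts, which overlap. *Rspo1* is the only R-spondin listed, with 269.9 and 133.2 normalized counts in Ctrl and 144.8 and 140.8 in cKO crypts. *Wnt2b*, *Rspo2* and *Rspo3*, ligands of the mesenchyme, are not listed in either table.

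The receptors were counted next. Of 11 Wnt and R-spondin receptors, 9 were below 0, beside 51.4% of all genes, with a median log2 fold change of -0.24 against -0.01 for all genes. Both cKO libraries lay below both Ctrl libraries for 3 of the 11, beside 11.3% of all genes. *Fzd8* was the lowest, with 116.2 and 109.8 normalized counts in Ctrl and 68.19 and 73.75 in cKO crypts (-0.66, 95% interval -1.71 to 0.39). *Fzd7*, the Frizzled of the stem cells, had 871.5 and 941.6 normalized counts in Ctrl and 531.9 and 796.7 in cKO crypts (-0.48, 95% interval -1.17 to 0.22). *Fzd1* was the third, at -0.24. These 3 Frizzled genes and *Wnt3* kept their separate groups with scaling by library size alone, with TMM scaling and with the length correction. The share of all genes that did so was not counted. With the length correction the median of the receptors was -0.10.

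Of 13 genes of the destruction complex and Dishevelled, *Dvl1* had both cKO libraries above both Ctrl libraries (0.22) and *Btrc* (-0.27) and *Dvl3* (-0.49) had both below, beside 9.73% of all genes above and 11.3% below. *Dvl1* and *Btrc* overlapped with the length correction. The median of these 13 genes was -0.08. Of the 8 listed genes of beta-catenin and its nuclear partners, *Tle1*, a corepressor, was above (0.14) but overlapped with library size alone, and the median of the 8 genes was 0.08. *Ctnnb1*, which encodes beta-catenin, had 8435 and 10510 normalized counts in Ctrl and 9438 and 11450 in cKO crypts, which overlap. The groups overlapped for all 4 listed Wnt antagonists (median -0.25) and for all 11 other Wnt targets (median -0.04). With the length correction *Znrf3*, in both lists, had both cKO libraries below, beside 1676 of 11546 genes. Among these targets *Myc* had 1713 and 1760 normalized counts in Ctrl and 1535 and 1771 in cKO crypts.

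Other genes of the crypt were set beside them. Of 15 other stem cell genes, *Igfbp4* had both cKO libraries above both Ctrl libraries (0.33) and *Cdk6* (-0.60), *Soat1* (-0.21) and *Prom1* (-0.10) had both below, with a median of -0.10. The shares of all genes were 9.73% above and 11.3% below. Of these, *Igfbp4* and *Cdk6* kept separate groups with library size alone, TMM scaling and the length correction. The share of all genes that kept separate groups under these alternatives was not counted. Of 12 proliferation genes 3 had both libraries below, beside the same 11.3% of all genes. They were *Mki67* (-0.44), *Top2a* (-0.40) and *Ccnb1* (-0.19), with 6857 and 6831 normalized counts of *Mki67* in Ctrl and 3974 and 6380 in cKO crypts, and all 3 kept separate groups under those alternatives. Limma, edgeR and DESeq2 called 0 genes of these stem cell and proliferation lists at an unadjusted p under 0.05. The 9 Paneth cell markers summed to 469900 and 405000 normalized counts in Ctrl and 770100 and 398800 in cKO crypts, so the highest sum was in the library with the lowest *Lgr5*. The median log2 fold change of these 9 markers was 0.29, and -0.06 with the length correction. Under that correction *Defa17*, *Defa24* and *Itln1* had both cKO libraries below both Ctrl libraries, beside 1676 of 11546 genes. The 7 listed mesenchymal markers summed to 15900 and 8701 in Ctrl and 10010 and 14000 in cKO crypts, and the 10 immune markers to 13380 and 5090 in Ctrl and 8953 and 6718 in cKO crypts. *Muc2*, the goblet cell mucin, was the only gene of the lists past the study's threshold (-1.13 on the log2 scale, unadjusted p = 0.0052 and adjusted p = 1.00 by limma). The part of these cell types in the values of the 10 genes was not tested.

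In villi, with 1 Ctrl library, values were compared without a test. Both cKO libraries were above the Ctrl library for 6 of the 10 genes and below it for 1, beside 43.7% and 44.2% of all 12701 genes. With the size factors, *Lgr5* alone was past 2-fold higher on average, beside 13.4% of all genes, and none was past 2-fold lower, beside 9.4%. The median log2 difference of the 10 genes was 0.28 and that of all genes -0.01. Scaling by library size alone put all genes at a median of 0.42. Both cKO libraries were then above Ctrl for 8 of the 10 genes, *Olfm4* was past 2-fold as well (1.05), and *Ascl2* went from a mean log2 difference of -0.20 to 0.22. The shares of all genes with that scaling were not counted, and those above belong to the size factors. Centred on the median of all genes, library size alone gave 6 of the 10 genes above Ctrl in both and 1 past 2-fold.

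*Lgr5* had 13.9 normalized counts in the Ctrl villi and 64.22 and 30.91 in the cKO villi, from 12, 84 and 32 reads. Both cKO villi lay above the Ctrl villi, by 2.13 and 1.10 on the log2 scale. It ranked 11820, 9501 and 10851 by normalized count among the 12701 genes in these libraries. *Olfm4* had 1697 normalized counts in the Ctrl villi and 3056 and 2234 in the cKO villi, a mean log2 difference of 0.62, again with both cKO libraries above. The other stem cell markers did not share this order. *Ascl2* had 41.7 normalized counts in Ctrl and 45.11 and 28.98 in cKO villi, on either side of the Ctrl value. *Smoc2* had 414.7 in Ctrl and 333.4 and 251.1 in cKO villi, the only gene of the 10 with both libraries below (mean log2 difference -0.52, or -0.09 with scaling by library size alone).

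The Wnt feedback genes *Axin2* and *Rnf43*, and also *Sox9*, were higher in both cKO villi than in the 1 Ctrl library. Of 9 other Wnt targets 7 were higher in both and 2 lower, beside 43.7% and 44.2% of all genes. *Axin2* had 337.1 normalized counts in Ctrl and 396.8 and 452.0 in cKO villi. *Rnf43* had 250.2 in Ctrl and 351.7 and 383.4 in cKO villi. *Sox9* had 71.82 in Ctrl and 104.0 and 109.1 in cKO villi. The mean log2 differences of these genes were 0.33, 0.55 and 0.56, and in each the cKO libraries were closer to each other than to the Ctrl library. Of the sorting and adhesion genes, *Ephb2* had 257.2 normalized counts in Ctrl and 347.1 and 259.8 in cKO villi, so replicate 2 was at the Ctrl level. *Cd44* (158.7 in Ctrl, 189.6 and 152.6 in cKO) and *Ephb3* (46.34 in Ctrl, 58.87 and 40.57 in cKO) had 1 library on each side of Ctrl.

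**Figure D4:**
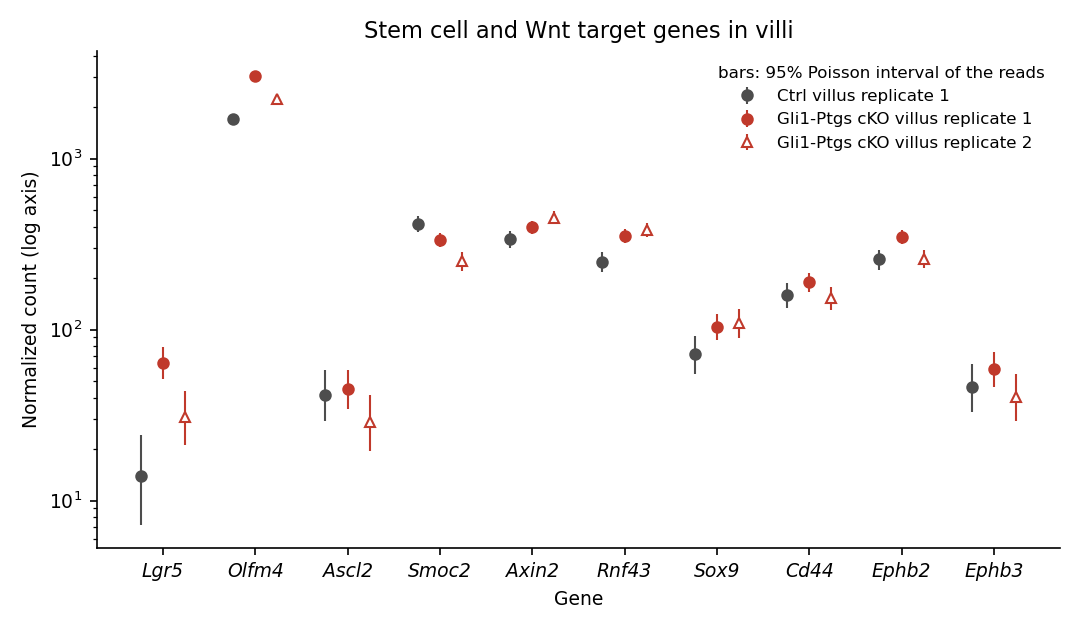
Normalized counts (log axis) of the 10 genes in the Ctrl villus library and the 2 Gli1-Ptgs cKO villus libraries, with bars for the 95% Poisson interval of the reads, which covers counting error only. Lgr5 lies at 13.9 in Ctrl and at 64.22 and 30.91 in Gli1-Ptgs cKO, and Smoc2 at 414.7 in Ctrl and at 333.4 and 251.1 in Gli1-Ptgs cKO.

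Other quantities moved with the villus values. The median log2 difference of all genes from the Ctrl villi was higher for longer transcripts, from -0.83 to 0.90 in cKO replicate 1 and from -0.74 to 0.81 in replicate 2, from the bin of the shortest transcripts to that of the longest. With the length correction the mean log2 difference was 1.29 for *Lgr5*, 0.75 for *Olfm4* and -0.67 for *Smoc2*. It was 0.12 for *Axin2*, 0.33 for *Rnf43* and 0.38 for *Sox9*, and the sign changed for *Ascl2* (0.29), *Cd44* (-0.37), *Ephb2* (from 0.22 to -0.79) and *Ephb3* (-0.24). Among 12 proliferation genes both cKO villi were above Ctrl for 5 and below for 6, near the shares of all genes (43.7% and 44.2%), with sums of 4014 normalized counts in Ctrl and 4387 and 4572 in cKO villi. *Mki67* was among the higher ones, with 142.5 in Ctrl and 608.6 and 579.5 in cKO villi, while *Mcm5*, a replication helicase subunit, had 517.8 in Ctrl and 243.9 and 277.2 in cKO villi. The 9 Paneth cell markers, which belong to the crypt base, summed to 8514 in Ctrl and 11420 and 8171 in cKO villi. The 10 immune markers summed to 25350 in Ctrl and 7528 and 7992 in cKO villi. The part of crypt carry-over, immune RNA and transcript length in the villus values of the 10 genes was not tested.

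Of the upstream lists in villi, the 11 receptors had a median log2 difference of 0.73, with 8 higher in both cKO villi, beside 43.7% of all genes, and 4 past 2-fold higher, beside 13.4%. *Lrp6*, the coreceptor, had 176.1 normalized counts in Ctrl and 613.9 and 490.7 in cKO villi. The 13 genes of the destruction complex and Dishevelled had a median of 0.16, with 7 higher and 5 lower in both cKO villi. The 8 genes of beta-catenin and its partners had 0.25 (5 and 3). The 5 Wnt ligand and secretion genes had -0.21 (2 and 3), and the 3 Wnt antagonists 1.28 (2 and 1). Of all genes 44.2% were lower in both. These list values were not corrected for transcript length. Of 14 other stem cell genes 11 were higher in both, beside the same 43.7%, with a median of 0.68. *Slc12a2*, an ion transporter enriched in crypts, had 237.5 normalized counts in Ctrl and 786.7 and 690.6 in cKO villi.

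Crypts were then set against villi, in CPM over the 11227 genes in both tables. The tables were normalized separately and hold 1 Ctrl villus library, so these ratios are descriptions without a test. As a check of the tissues, all 9 Paneth cell markers were past 2-fold higher in crypts and 8 of 10 enterocyte markers past 2-fold higher in villi. All 10 genes were past 2-fold higher in crypts over all libraries, beside 38.3% of the shared genes (6.93% were past 2-fold higher in villi). In Ctrl mice the ratio of crypts to villi was 87.65 for *Lgr5*, 38.24 for *Olfm4*, 18.59 for *Sox9*, 17.11 for *Ascl2* and 17.1 for *Ephb3*. It was 9.694 for *Cd44*, 9.046 for *Smoc2*, 7.505 for *Ephb2*, 5.194 for *Axin2* and 4.535 for *Rnf43*. *Lgr5* and *Olfm4* thus stood at the steep end and the Wnt feedback genes *Axin2* and *Rnf43* at the shallow end, while the stem cell marker *Smoc2* lay below *Cd44*. By the log2 difference over all libraries *Olfm4* ranked 25 and *Lgr5* 29 among the 11227 genes, whereas *Axin2* ranked 1498 and *Rnf43* 2870.

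All 10 ratios were smaller in cKO mice. The share of all genes with a smaller ratio was not counted, so this cannot be read as particular to the 10 genes. *Lgr5* had a ratio of 13.67 in cKO, *Olfm4* 16.31, *Sox9* 10.22 and *Rnf43* 2.086. *Ascl2* (17.11 in Ctrl and 16.2 in cKO) and *Smoc2* (9.046 and 8.382) differed least between genotypes. The median log2 difference of all shared genes also went down, from 1.06 in Ctrl to 0.56 in cKO, and that of the 10 genes from 3.39 to 3.11. These medians were taken within each genotype and do not give the drop of a typical gene. The log2 difference of *Lgr5* went from 5.32 to 3.47 and that of *Olfm4* from 5.24 to 4.05. *Rnf43* (2.10 to 0.97), *Ephb2* (2.81 to 1.89), *Sox9* (3.93 to 3.20) and *Cd44* (3.15 to 2.43) also went down. So did *Axin2* (2.31 to 1.62) and *Ephb3* (3.68 to 3.18). That of *Smoc2* went from 3.12 to 3.04 and that of *Ascl2* from 3.64 to 3.60. The drops of these genes were not set against the drops of all genes. For *Lgr5* the Ctrl ratio rests on 12 reads in the villi.

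**Figure D5:**
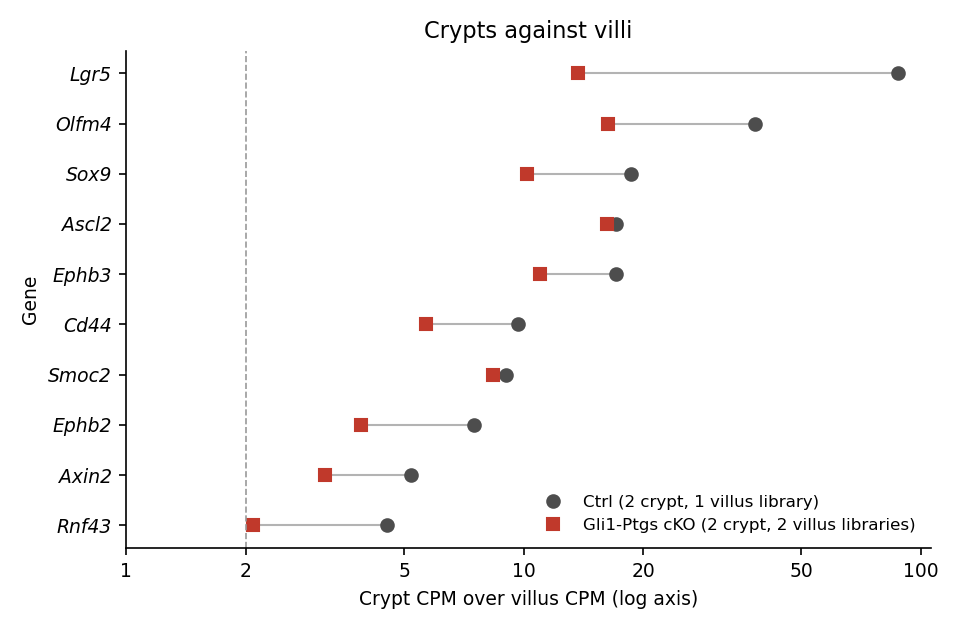
Ratio of crypt to villus CPM (log axis) for the 10 genes in Ctrl (grey circles) and Gli1-Ptgs cKO mice (red squares), with the 2-fold ratio as a dashed line. All 10 red squares lie left of the grey circles, from Lgr5 (87.65 and 13.67) to Rnf43 (4.535 and 2.086). Those of Ascl2 and Smoc2 lie close to their circles. The share of all genes with a smaller ratio in Gli1-Ptgs cKO mice was not counted.

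The order of levels per length differed in villi. *Olfm4* again came first, with a mean of 62.58 CPM per kilobase over the 3 libraries. *Axin2* (6.856), *Smoc2* (6.002) and *Rnf43* (5.682) followed with overlapping ranges, separate from *Cd44* (2.189). *Ephb2* had 1.957, *Ascl2* 1.753, *Sox9* 1.715, *Ephb3* 0.7546 and *Lgr5* 0.5933, each overlapping its neighbour. The Wnt feedback genes therefore ranked above *Ascl2*, *Sox9* and *Cd44* in villi, and *Lgr5* came last.

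The genes most like *Lgr5* over the 7 libraries were found by the root mean square of the difference between profiles of log2(CPM + 1), each centred on its own mean, among 10671 genes with at least 50 reads in every crypt library. *Aqp4*, a water channel, was first (0.31 on the log2 scale), followed by *Top2a* (0.34), the DNA topoisomerase of dividing cells, and *Pola1* (0.34), the catalytic subunit of DNA polymerase alpha. *Olfm4* ranked 4 (0.39), *Dach1*, a transcriptional regulator, 5 (0.40) and *Kif11*, a spindle motor, 6 (0.43). *Aqp4* had 79.69 and 86.72 CPM in Ctrl crypts and 40.85 and 82.52 in cKO crypts. In villi it had 1.926 in Ctrl and 7.264 and 5.959 in cKO. As for *Lgr5*, cKO replicate 1 was the lowest crypt library and the Ctrl villi were the lowest of all. *Aqp4* was chosen for its likeness to *Lgr5* over these libraries, so the shared order is no separate result. Of the other members *Ephb3* ranked 33, *Sox9* 34, *Ascl2* 121, *Smoc2* 172, *Cd44* 212, *Ephb2* 527, *Axin2* 1391 and *Rnf43* 2504. All of these profiles share the same 7 libraries and their depth and length trends.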

How the data were processed

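Per the labels and the study's methods, the authors used STAR for alignment (mm10) and DESeq2 on gene counts. The deposited tables hold a signal per library, which is the gene count divided by the DESeq2 size factor. The counting program, its strand setting, the annotation and tool versions are not given in the sources used here. The authors' fold changes and p-values in the same tables were not used, and 0 columns of unmapped samples were found. Dividing each value by the smallest step of its library gave the reads (100% whole within 0.01 read).

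The 10 genes and the pathway and cell type lists were chosen with earlier results of these data known. Crypts were compared by limma-trend, without a filter, on log2 values with a pseudocount of 1 (R 4.3.3, limma 3.58.1), 2 against 2 libraries, adjusted by Benjamini-Hochberg over 11554 genes. P-values measure the spread between these libraries. Alternatives were edgeR 4.0.16 and DESeq2 1.42.0 on recovered reads, a block for the replicate number, TMM or library size alone, a pseudocount of 0.1, at least 10 reads in every library, a mean of at least 500, a lowess correction for transcript length (span 0.3, GENCODE M21) and leaving out each library. Centring of crypt and villus differences on the median of all genes was chosen after seeing the data. Villi, and crypts against villi, were described without a test. Intervals on reads cover counting error only. Besides the 10 genes, genes named by rule were those past the study's threshold in each list, the highest and lowest among genes whose groups did not overlap, *Ptgs1*, *Ptgs2*, *Gli1*, *Dcn* and the 5 genes most like *Lgr5*. Other named genes (*Wls*, *Rspo1*, *Ctnnb1*, *Myc*, *Lrp6*, *Slc12a2*, *Mcm5*, *Znrf3*, *Defa17*, *Defa24*, *Itln1*, the unlisted ligands, other genes whose groups did not overlap and *Mki67* in villi) were picked after their values were seen. The tests were checked on simulated counts at an adjusted p under 0.05. With the common dispersion of the crypt libraries (0.0814), limma recovered 9% of genes changed by 1 on the log2 scale and 94% of those changed by 2. The shares were 8% and 93% for edgeR and 13% and 91% for DESeq2. Figures were drawn with matplotlib 3.10.9.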

Additional observations from a re-analysis of the deposited data

How the results depend on the processing

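No direction or call of the 10 genes in crypts changed with TMM scaling, library size alone, a pseudocount of 0.1, either low-count filter, edgeR or DESeq2. With the length correction *Cd44* (0.00), *Ephb2* (0.11) and *Ephb3* (0.07) changed sign. Genes past the study's threshold in crypts, 20 higher and 1 lower, became 60 and 5 with DESeq2, which also called 11 genes at an adjusted p under 0.05. The lower genes numbered 3 with edgeR, 4 with library size alone and 4 with the length correction, and the higher ones 12 with a mean of at least 500.

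Leaving out 1 library at a time, genes at an adjusted p under 0.05 ranged from 0 to 1987, higher genes from 15 to 593 and lower genes from 3 to 288, and called genes among the 10 from 0 to 2 (*Lgr5* and *Ascl2*, without cKO crypt replicate 2). Crypt log2 fold changes that changed sign ranged from -0.22 to 0.07 for *Olfm4*, -0.28 to 0.70 for *Ascl2* and -0.21 to 0.01 for *Smoc2*. Those of *Axin2* (-0.08 to 0.31), *Rnf43* (-0.49 to 0.26), *Ephb2* (-0.56 to 0.11) and *Ephb3* (-0.12 to 0.06) changed sign too. The sign was kept for *Lgr5* (-0.83 to -0.05), *Cd44* (-0.24 to -0.07) and *Sox9* (0.11 to 0.3).

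Same-numbered crypt libraries share only a number in the labels, and their deviations from the group means correlated at 0.247 across genes. With a replicate block limma called 34 genes at an adjusted p under 0.05, with 63 higher and 15 lower at the study's threshold, and edgeR with the replicate block 26, 62 and 11. Neither called any of the 10 genes.

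In villi, scaling by library size alone moved the median log2 difference of all genes from -0.01 to 0.42 and put 2 of the 10 genes past 2-fold instead of 1. With that scaling centred on the median of all genes, 1 was past 2-fold. Between crypts and villi, all 10 genes stayed past 2-fold without each library in turn. Centred on the median of all genes (0.76), 9 did, since *Rnf43* then had 0.62. Depth limits the villus values of *Lgr5*, *Ascl2* and *Ephb3*, which rest on as few as 12, 30 and 40 reads. The cause of these changes was not tested.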
